A study of Pimephales promelas with 338 samples.

Results

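The genes col2a1a, col9a1a and col10a1a encode collagen chains of cartilage, and each was measured by a single probe, 3 of the 1832 probes of a targeted expression panel. They are the probes whose symbol is one of these names, a rule that uses no measured value, although the names themselves were chosen with earlier results of these data known. The assay was TempO-Seq, in which a pair of detector oligonucleotides is ligated on its transcript, amplified and counted, applied to fathead minnows (Pimephales promelas) homogenised whole as larvae. Each of the 12 chemicals acted for 24 h, 2 chemicals to an exposure and 3 plates to each of the 6 exposures. The letters A, B and C of the labels were taken as these plates (replicates A, B and C). A library is the pooled homogenate of one treatment on one plate, 5 larvae with dead animals left out, and the number left in a pool is not given in the sources used here. The 8 dose codes of a chemical, D1 to D8, stand for a dilution series of nominal concentrations between 66.67 and 0.021 µM, or 56.43 and 0.018 µM for Fipronil amide and 32.2 and 0.011 µM for Fexofenadine. The labels do not tie a code to a concentration, so levels are given by code, and a slope is the change in log2 level per code step towards D1. In the labels each code has its own well row, from row A for D1 to row H for D8, so code and well row cannot be told apart.

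The chemicals were, in the pairs that shared plates and control libraries, Metolachlor OA with 3,4-Dichlorophenyl isocyanate, 1(2H)-Phthalazinone with Gabapentin, Metribuzin-DA with 2-tert-Butyl-4-methoxyphenol, Hydrochlorothiazide with 4-Chlorophenyl methyl sulfoxide, Cetirizine with Fipronil amide, and Fexofenadine with cis-Nonachlordane. Each plate also held a DMSO solvent control and a caffeine positive control, and all wells, treated ones included, held the same share of DMSO within an exposure. A separate quality-assurance (QA) set held 8 DMSO and 8 caffeine libraries. The age of the larvae is given no closer than larval, and nothing ties the libraries to a strain or sex. Of the 338 libraries, 286 were of chemicals and 36 were plate controls. Each code had 3 libraries except D1 of 2-tert-Butyl-4-methoxyphenol, which had 1, replicate A. Library totals ran from 112247 to 1029511 counts with a median of 609598, and no member fell below 180 counts in any library. Levels are CPM, a probe's count scaled by the library total, unless a fitted change is named. Where libraries are said to lie below or above the DMSO libraries, the share of all probes that did so was not counted.

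Type II collagen, built from chains such as that of col2a1a, forms the fibrils of cartilage, and in zebrafish the gene is also transcribed in the notochord. Type IX collagen, which includes the chain of col9a1a, does not form fibrils itself but sits on the surface of type II fibrils. Type X collagen, the product of col10a1a, is laid down by hypertrophic chondrocytes, the late stage of cartilage cells before mineralisation, and in zebrafish col10a1a is transcribed in osteoblasts as well. In the larval skeleton of fish much of the head and fin support is cartilage that is growing and starting to ossify. Levels of the 3 genes come from probes of unknown efficiency and are therefore not compared with each other. Without probe sequences, it is not known whether related genes share signal (col2a1b and col10a1b have probes of their own).

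All 3 collagens fell towards D1 of 3,4-Dichlorophenyl isocyanate, and a fall towards D1 of 2-tert-Butyl-4-methoxyphenol was called for col10a1a and not for the other two. Of the 36 slopes of a member in a chemical, these 4 passed the test over all probes (edgeR quasi-likelihood F-test, adjusted p below 0.05). The 30 slopes in the other 10 chemicals did not. Over all probes, a falling slope was called for 161 of 1507 in the isocyanate (10.7%, with 121 rising). In 2-tert-Butyl-4-methoxyphenol a falling slope was called for 204 of 1589 probes (12.8%, with 229 rising). Its D1 is a single library, of replicate A, and the col10a1a slope was not called without that replicate. At D1 of the isocyanate the mean of col10a1a was 40.1% of the DMSO mean, that of col2a1a 64.5% and that of col9a1a 79.3%. In the main test of D1 against DMSO, col10a1a was called there and col2a1a and col9a1a were not. The slopes leave out the DMSO libraries. Tests of unequal falls between the genes did not pass after adjustment. Whole larvae were homogenised, so fewer cells of a type and less RNA per cell cannot be told apart.

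In the isocyanate exposure, col10a1a measured 2667 CPM in DMSO replicate A, 2348 in B and 2185 in C. At D1 it measured 1006, 1022 and 862 CPM in replicates A, B and C. Every D1 library lay below every DMSO library and below every library of codes D2 to D8. At D2 the replicates were apart, at 2332 CPM in A, 1094 in B and 1429 in C, so that A lay within the DMSO range and B and C lay below it. The means ran from 2429.6 ± 299.9 CPM at D8 through 2467 ± 145 at D5, 2108 ± 162 at D4, 2042 ± 276 at D3 and 1618 ± 640.3 at D2 to 963 ± 87.9 at D1 (SD, n = 3). From D8 to D5 the code means stayed within 1 SD of the DMSO mean of 2400.2 ± 245 CPM.

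The slope of col10a1a over the isocyanate codes was -0.18 ± 0.018 log2 units per step (SE, adjusted p = 8.68e-11). Against DMSO the log2 fold change was -1.38 ± 0.17 at D1 (adjusted p = 1.44e-07) and -0.66 ± 0.17 at D2 (adjusted p = 0.0320), and no other code passed for this gene. A fall was called for 1.99% of probes at D1 (30 of 1507), for 0.265% at D2 (4 of 1507) and for 10.7% of probes by slope (161 of 1507, with 121 rising). With library totals in place of TMM scaling, 92 probes fell and 262 rose by slope, and the slope of col10a1a was -0.16 (that of col2a1a -0.094 and that of col9a1a -0.068, all called). Without replicate B, 44 probes fell and 42 rose, and the 3 members were called. The D2 call was lost without replicate B (-0.45, adjusted p = 0.903) and without replicate C (-0.63, adjusted p = 0.454). Without D1 the slope was -0.11 (adjusted p = 0.0015), and without D1 and D2 it was -0.078 (adjusted p = 0.203).

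**Figure D1:**
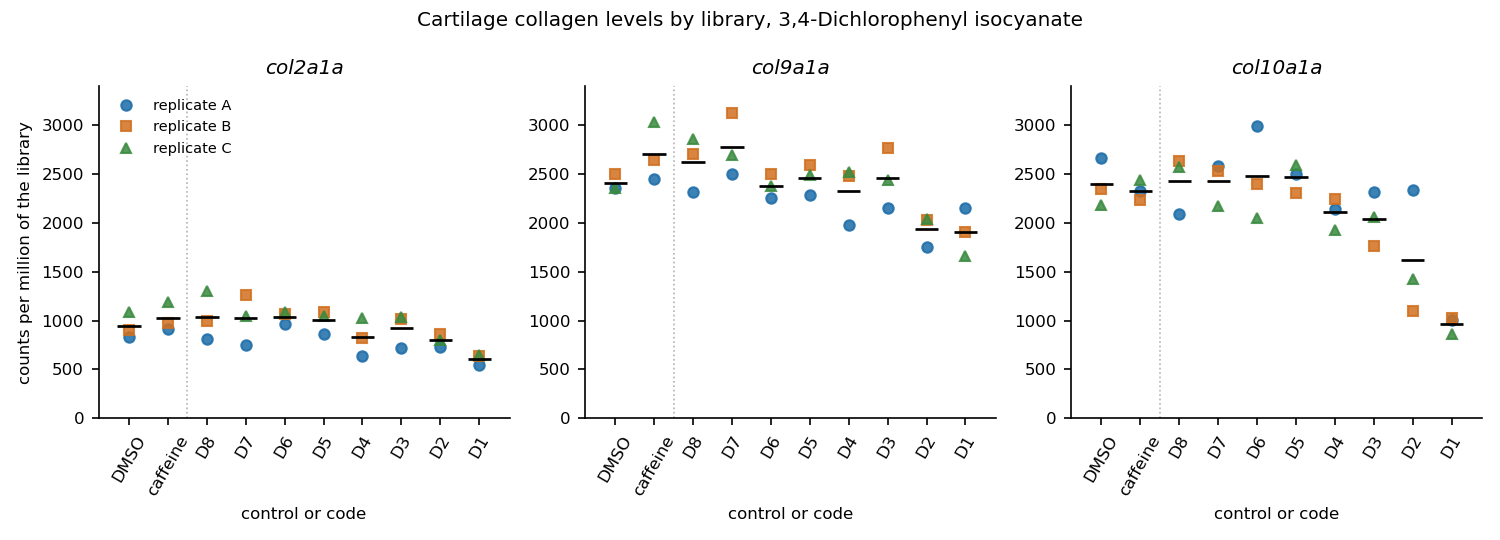
CPM of col2a1a, col9a1a and col10a1a in every library of the 3,4-Dichlorophenyl isocyanate series, from D8 to D1, beside the DMSO and caffeine libraries of the same plates; symbols mark the replicate and black bars the mean. All 3 genes are lowest towards D1, and for col10a1a the 3 libraries of D1 sit between 862 and 1022 CPM against 2185 to 2667 CPM in DMSO.

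The type II chain gene col2a1a measured 832 CPM in DMSO replicate A, 907 in B and 1088 in C. At D1 of the isocyanate it measured 543, 635 and 646 CPM in the same order, all below the DMSO libraries and below the libraries of the other codes except replicate A of D4, at 633 CPM. The D1 mean of 608 ± 56.5 CPM (SD, n = 3) was 64.5% of the DMSO mean. At D2 the libraries measured 733 (A), 866 (B) and 796 CPM (C), 2 of them below the lowest DMSO library. Replicate A held the lowest of the 3 libraries of col2a1a at every code and in DMSO.

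The slope of col2a1a was -0.11 ± 0.021 (SE, adjusted p = 5.69e-05), and it was negative within each plate (-0.071 in A, -0.094 in B and -0.11 in C on log2 CPM). The log2 fold change at D1 was -0.71 ± 0.19 and missed the threshold (adjusted p = 0.0630). With the plate letter as a replicate block, which takes up the low level of replicate A, it was -0.70 ± 0.12 (adjusted p = 3.64e-04). Without D1 the slope was -0.083 and just missed (adjusted p = 0.0523).

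The type IX chain gene col9a1a measured 2356 CPM in DMSO replicate A, 2495 in B and 2361 in C. At D1 of the isocyanate it measured 2147, 1907 and 1663 CPM, and at D2 1751, 2033 and 2039 CPM, in the order A, B and C. All 6 of these libraries lay below the DMSO libraries, and the means were 79.3% of DMSO at D1 and 80.7% at D2. The 3 libraries of col9a1a at D5 of 2-tert-Butyl-4-methoxyphenol also lay below their DMSO libraries, without a call. At D7 all 3 libraries lay above the DMSO libraries, at 2503 (A), 3126 (B) and 2691 CPM (C), so part of the slope lies in the codes far from D1.

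The slope of col9a1a was -0.088 ± 0.014 (SE, adjusted p = 8.35e-06), and it held without D1 at -0.083 (adjusted p = 0.0019). No code passed against DMSO without the block, with -0.40 ± 0.13 at both D1 (adjusted p = 0.201) and D2 (adjusted p = 0.189). With the plate letter as a replicate block both passed, at -0.39 ± 0.10 for D1 (adjusted p = 0.0450) and -0.41 ± 0.10 for D2 (adjusted p = 0.0313). The block raised the calls of a member at a code from 3 to 6 of 288, and all 3 added calls were of the isocyanate. The block raised calls for probes in general too, with a fall called for 3.98% of probes at D1 (60 of 1507) and for 0.73% at D2 (11 of 1507). Per plate, the slope of col9a1a was -0.045 in A, -0.074 in B and -0.087 in C, and that of col10a1a was -0.11, -0.20 and -0.17.

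In the 2-tert-Butyl-4-methoxyphenol exposure, col10a1a measured 2137 CPM in DMSO replicate A, 1968 in B and 1872 in C. The single library of D1, replicate A, measured 978 CPM, 49.1% of the DMSO mean and below every other library of the chemical. At D2 the libraries measured 1611 (A), 2045 (B) and 2188 CPM (C), and at D3 1790.1 (A), 1500.3 (B) and 1995 CPM (C), so that 3 of these 6 lay below the DMSO range. At D8 all 3 libraries, at 2259.6 (A), 2428 (B) and 2645 CPM (C), lay above it. The code means lay above DMSO at D8 (2444 ± 193 CPM) and below it at D3 (1762 ± 249 CPM, SD, n = 3, against 1992 ± 134 CPM in DMSO). The run was not even. At D2 the mean was 1948 ± 301 CPM, 97.8% of DMSO, and all 3 libraries of D6 lay above the DMSO range.

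The slope of col10a1a was -0.13 ± 0.018 (SE, adjusted p = 5.48e-08), where a falling slope was called for 12.8% of probes (204 of 1589, with 229 rising). The log2 fold change at D1 was -1.09 ± 0.19 (adjusted p = 9.49e-05), with a fall called for 4.78% of probes (76 of 1589), and its error assumes that the lone library varies like the other groups. Without D1 the slope was -0.056 (adjusted p = 0.0324). Without replicate A, which takes D1 with it, the slope was -0.038 (adjusted p = 0.232), where 14 probes fell and 33 rose. Within replicates B and C, over D2 to D8, the slope on log2 CPM was -0.057 and -0.041, against -0.16 over all 8 codes in A.

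**Figure D2:**
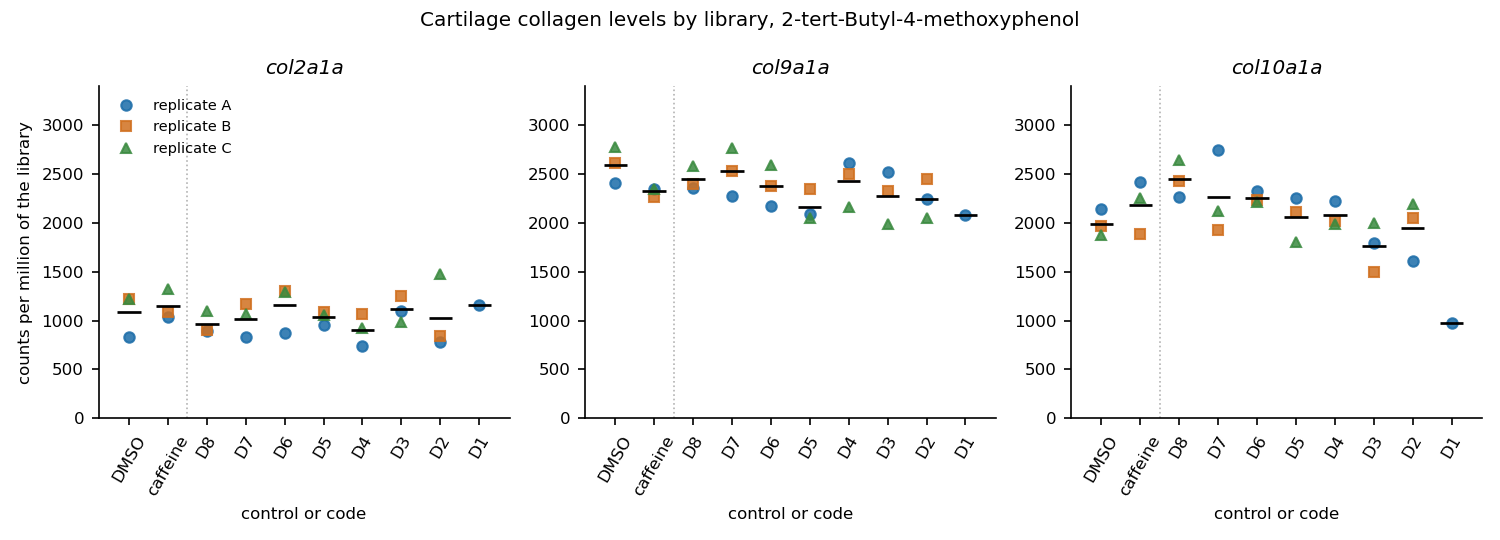
CPM of the 3 collagen genes in every library of the 2-tert-Butyl-4-methoxyphenol series, from D8 to D1, with the DMSO and caffeine libraries of the same plates; symbols mark the replicate and black bars the mean. D1 has 1 library, at 978 CPM for col10a1a and within the DMSO range, at 1163 CPM, for col2a1a.

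The other two collagens gave no called change in this chemical. At D1 col2a1a measured 1163 CPM, within the DMSO libraries at 827 (A), 1223 (B) and 1221 CPM (C), and its slope was 0.020 ± 0.027 (95% interval -0.033 to 0.073, adjusted p = 0.622). The D1 library of col9a1a, at 2081 CPM, lay below the DMSO libraries at 2403 (A), 2608 (B) and 2772 CPM (C), a log2 fold change of -0.37 ± 0.15 (adjusted p = 0.292). In none of the 22 libraries of the chemical did col9a1a exceed the highest DMSO library, and its slope was -0.028 ± 0.014 (95% interval -0.057 to 0.00070, adjusted p = 0.145).

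In a fit over all 6 exposures, each chemical's slope was compared with the mean slope of the other 11 (1661 probes). For the isocyanate the difference was -0.17 ± 0.014 for col10a1a (adjusted p = 1.10e-21), -0.088 ± 0.011 for col9a1a (adjusted p = 2.08e-11) and -0.12 ± 0.023 for col2a1a (SE, adjusted p = 2.67e-05), where 6.98% of probes were called lower. For 2-tert-Butyl-4-methoxyphenol it was -0.12 ± 0.019 for col10a1a (adjusted p = 6.83e-08, with 10.5% of probes called lower), and not called for col9a1a (adjusted p = 0.264) or col2a1a (adjusted p = 0.469). Without D1, col10a1a and col9a1a still passed for the isocyanate (adjusted p = 2.04e-06 for both), while col2a1a (adjusted p = 0.0684) and col10a1a in 2-tert-Butyl-4-methoxyphenol (-0.040, adjusted p = 0.242) did not.

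The slopes of these 2 chemicals were also set against each other, a contrast added after their values were seen. The isocyanate slope minus the other was -0.13 ± 0.034 for col2a1a (adjusted p = 0.0019) and -0.061 ± 0.017 for col9a1a (adjusted p = 0.0066), where 8.79% of probes were called lower. For col10a1a the difference was -0.045 with a 95% interval of -0.088 to -0.0017 (adjusted p = 0.168), which does not show that the slopes were alike. Without D1 the difference for col9a1a stayed called (adjusted p = 0.0152) and that for col2a1a did not (adjusted p = 0.185). The chemicals were tested in different exposures, so chemical and exposure cannot be told apart beyond the control libraries.

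**Figure D3:**
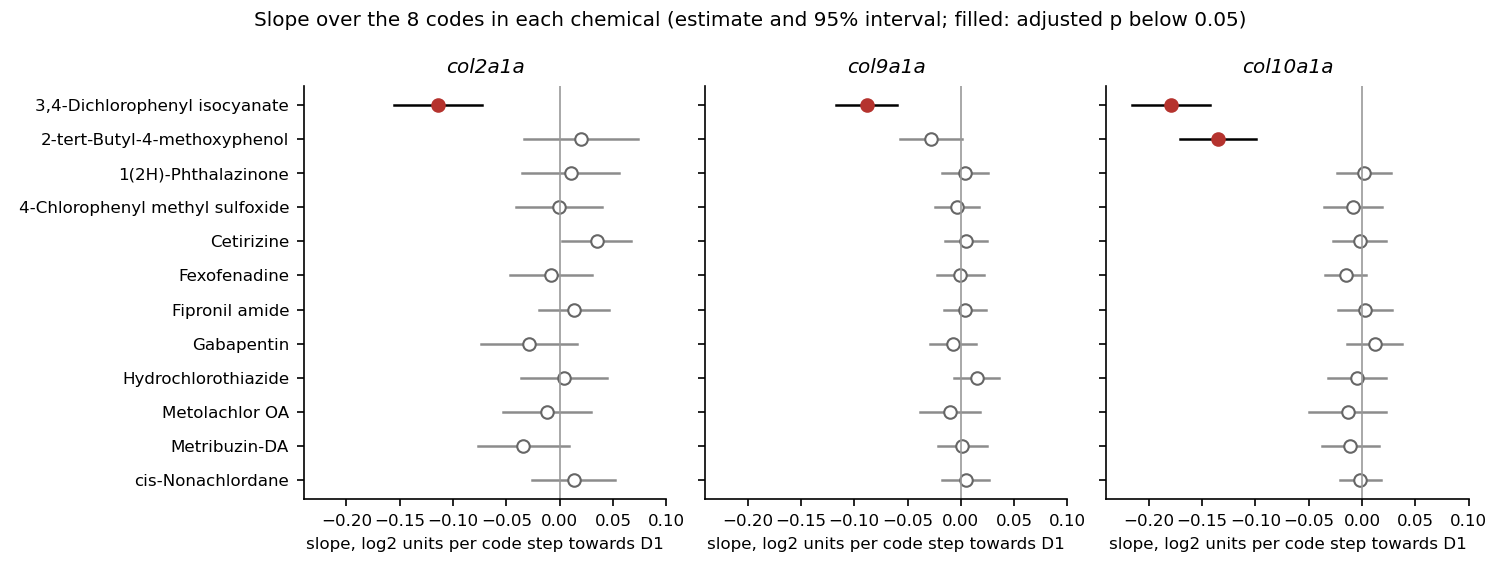
Slope of each collagen gene over the 8 codes in each of the 12 chemicals, in log2 units per code step towards D1, with its 95% interval; filled points have an adjusted p below 0.05. The 4 filled points are the 3 genes in 3,4-Dichlorophenyl isocyanate and col10a1a in 2-tert-Butyl-4-methoxyphenol, and the other intervals lie within -0.076 and 0.073.

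Ratios of counts within a library need no scaling, and they were used to ask whether the genes fell by unequal amounts. In DMSO of the isocyanate exposure there were 0.9996 ± 0.115 counts of col10a1a per count of col9a1a, and at D1 0.508 ± 0.035 (SD, n = 3). The log2 ratio of col10a1a to col9a1a had a slope of -0.093 per step over the isocyanate codes (permutation test within plates, p = 0.00294, adjusted p = 0.106), and that of col10a1a to col2a1a -0.070 (p = 0.0068, adjusted p = 0.117). In the same permutation test, these slopes in 2-tert-Butyl-4-methoxyphenol were -0.071 (p = 0.0201, adjusted p = 0.181) and -0.11 (p = 0.00973, adjusted p = 0.117). Of 36 ratio tests, 4 had an unadjusted p below 0.05 and 0 passed after adjustment. Without D1 these 4 slopes were smaller. In the permutation test without D1, the ratio of col10a1a to col9a1a had a slope of -0.035 (p = 0.196) and that of col10a1a to col2a1a -0.036 (p = 0.207) in the isocyanate. In 2-tert-Butyl-4-methoxyphenol, where D1 is a single library, the permutation test without it gave -0.042 (p = 0.0964) and -0.067 (p = 0.0569).

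In the other 10 chemicals no slope of the 3 collagens over the codes was called. The slopes of col2a1a lay between -0.034 (Metribuzin-DA) and 0.035 (Cetirizine), those of col9a1a between -0.010 (Metolachlor OA) and 0.015 (Hydrochlorothiazide), and those of col10a1a between -0.015 (Fexofenadine) and 0.012 (Gabapentin). Across these chemicals 4 of 15132 probe slopes passed (0.0264%), so the absence of a call in the members is near the background. The rise of col2a1a over the Cetirizine codes, from 1227 ± 161 CPM at D8 to 1479 ± 115 CPM at D1 (SD, n = 3), did not pass. Its slope was 0.035 ± 0.016 (adjusted p = 0.613). Against DMSO, 0 of the 240 member contrasts in these chemicals passed, 2 had an unadjusted p below 0.05, and 2 of all 121056 probe contrasts passed (0.00165%). The log2 fold changes at single codes ran from -0.36 to 0.32 for col2a1a, where the SE was 0.15 to 0.21. They ran from -0.19 to 0.20 for col9a1a and from -0.18 to 0.28 for col10a1a.

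**Figure D4:**
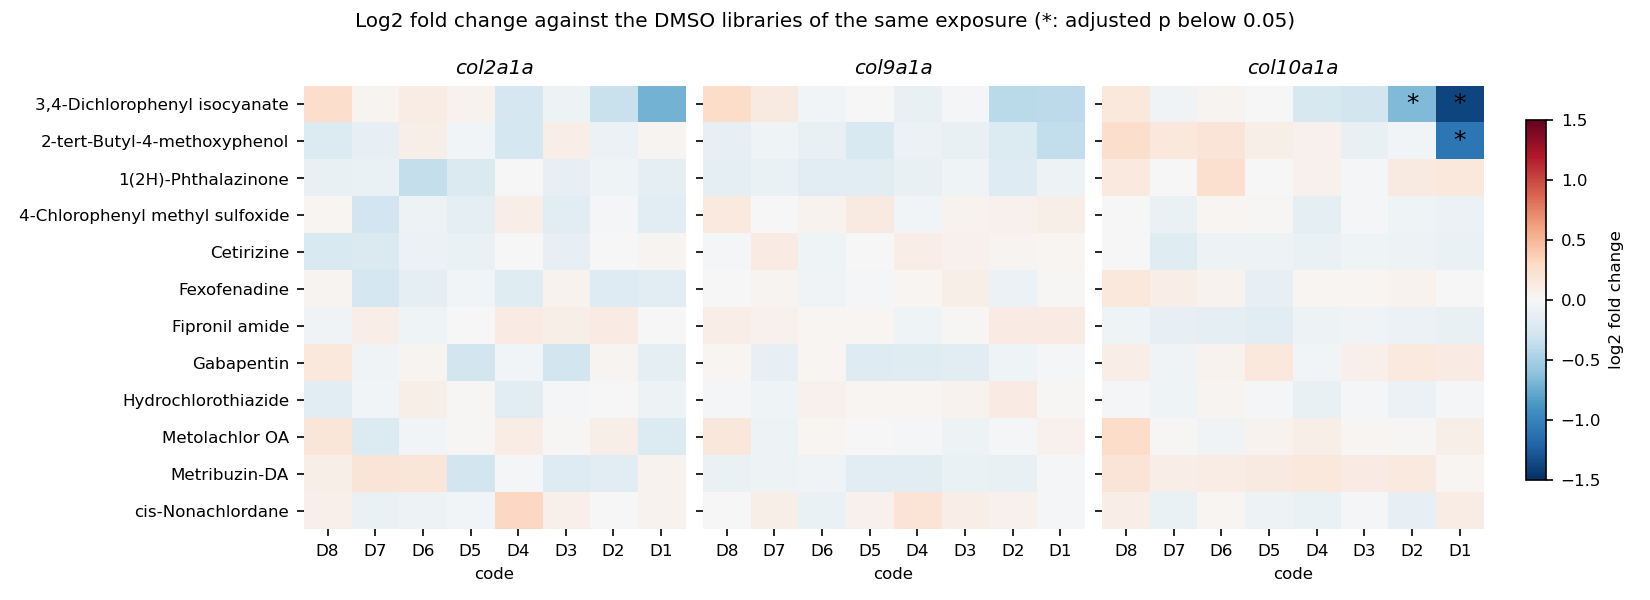
Fitted log2 fold change of each collagen gene at each code, D8 to D1, against the DMSO libraries of the same exposure, for the 12 chemicals; blue is lower, red higher, and asterisks mark an adjusted p below 0.05. The 3 asterisks are col10a1a at D1 and D2 of 3,4-Dichlorophenyl isocyanate and at D1 of 2-tert-Butyl-4-methoxyphenol.

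Among the 96 chemical and code means, D1 of the isocyanate was the lowest for each of the 3 genes. For col10a1a it was followed by D1 of 2-tert-Butyl-4-methoxyphenol and D2 of the isocyanate. The next for col2a1a and for col9a1a was D2 of the isocyanate, and these neighbours overlapped for col9a1a, at 1906 ± 242 and 1941 ± 164 CPM (SD, n = 3). At the upper end, D4 of cis-Nonachlordane had the highest mean of both col2a1a and col9a1a. There col2a1a measured 1568 (A), 1793 (B) and 1645 CPM (C), all above the DMSO libraries of that exposure at 1290.3 to 1389 CPM, with a log2 fold change of 0.32 that did not pass (adjusted p = 0.9998). The highest col10a1a mean was at D6 of 1(2H)-Phthalazinone, 2944 ± 200 CPM, where col2a1a had its lowest log2 fold change outside the 2 responding chemicals, -0.36 (adjusted p = 0.9999).

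By chemical, over all of its codes, the median of col2a1a ran from 913 CPM in the isocyanate and 986 CPM in Metolachlor OA to 1411 CPM in cis-Nonachlordane and 1439 CPM in Fipronil amide. That of col9a1a ran from 2262 CPM in 1(2H)-Phthalazinone to 2714 CPM in Fipronil amide and Cetirizine, and that of col10a1a from 2117 CPM in 2-tert-Butyl-4-methoxyphenol to 2655 CPM in 1(2H)-Phthalazinone. In each of these orders, neighbouring chemicals differed by less than the SD over their libraries. The low place of the isocyanate for col2a1a was shared by Metolachlor OA, dosed on the same plates, and by their DMSO libraries.

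Without any test chemical, the DMSO means of col2a1a ran from 942 ± 132 CPM in the isocyanate exposure through 1090.4 ± 228, 1199 ± 239, 1334 ± 50.4 and 1362 ± 244 to 1451 ± 235 CPM in the exposure of Cetirizine and Fipronil amide (SD, n = 3 each). Each neighbour in this order lay within the larger SD of the pair. The means of col9a1a, 2375 to 2616 CPM, were closer, and those of col10a1a ran from 1992 ± 134 CPM in the exposure of 2-tert-Butyl-4-methoxyphenol to 2812 ± 392 CPM in that of Cetirizine. The lowest col10a1a mean and the next, 2263 ± 241 CPM, differed by more than either SD. Over the 6 exposures together none of the members passed (adjusted p = 0.140 for col2a1a, 0.722 for col9a1a and 0.230 for col10a1a), where 144 of 1474 probes did (9.77%), falling to 13 without replicate B and 85 without replicate C.

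Caffeine left the 3 genes without a called change. The caffeine libraries, on plates and in the QA set, are those so named by the treatment label, while their titles name DMSO. On the plates col2a1a measured 1229.9 ± 246 CPM in DMSO (SD, n = 18) and 1248 ± 245 CPM in caffeine (SD, n = 18), with a fitted log2 change of 0.051 ± 0.067. The level of col9a1a went from 2499.6 ± 189 to 2541 ± 279.6 CPM (0.047 ± 0.045) and that of col10a1a from 2376 ± 319 to 2283 ± 205 CPM (-0.026 ± 0.040). Caffeine libraries were lower than the DMSO library of their plate in 9, 8 and 11 of 18 pairs for col2a1a, col9a1a and col10a1a. The smallest adjusted p was 0.663, and 60 of 1466 probes passed (4.09%), 39 without replicate A and 10 without replicate C. The 95% intervals of the log2 change were -0.085 to 0.19 for col2a1a, -0.044 to 0.14 for col9a1a and -0.11 to 0.055 for col10a1a.

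In the QA set col2a1a measured 1378 ± 182 CPM in DMSO and 1379 ± 182 CPM in caffeine (SD, n = 8 each). The level of col9a1a went from 2539.8 ± 111 to 2587 ± 145 CPM and that of col10a1a from 2252 ± 182 to 2119.7 ± 136 CPM, with the ranges overlapping in each case. The log2 changes of 0.020 ± 0.074, 0.044 ± 0.046 and -0.069 ± 0.053 did not pass (smallest adjusted p = 0.792), where 17 of 1324 probes did (1.28%). Without library plate P2, P3 or P4 of the QA set, 11, 8 and 11 probes passed, and with the library plate as a replicate block 48 of 1402 did, with no member among them. No difference of the caffeine change was called between exposures (0 of 1506 probes called, 0.0%, 64 at an unadjusted p below 0.05) or between QA libraries and plates (0 of 1465, 0.0%, 49 at an unadjusted p below 0.05) in the edgeR interaction tests.

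**Figure D5:**
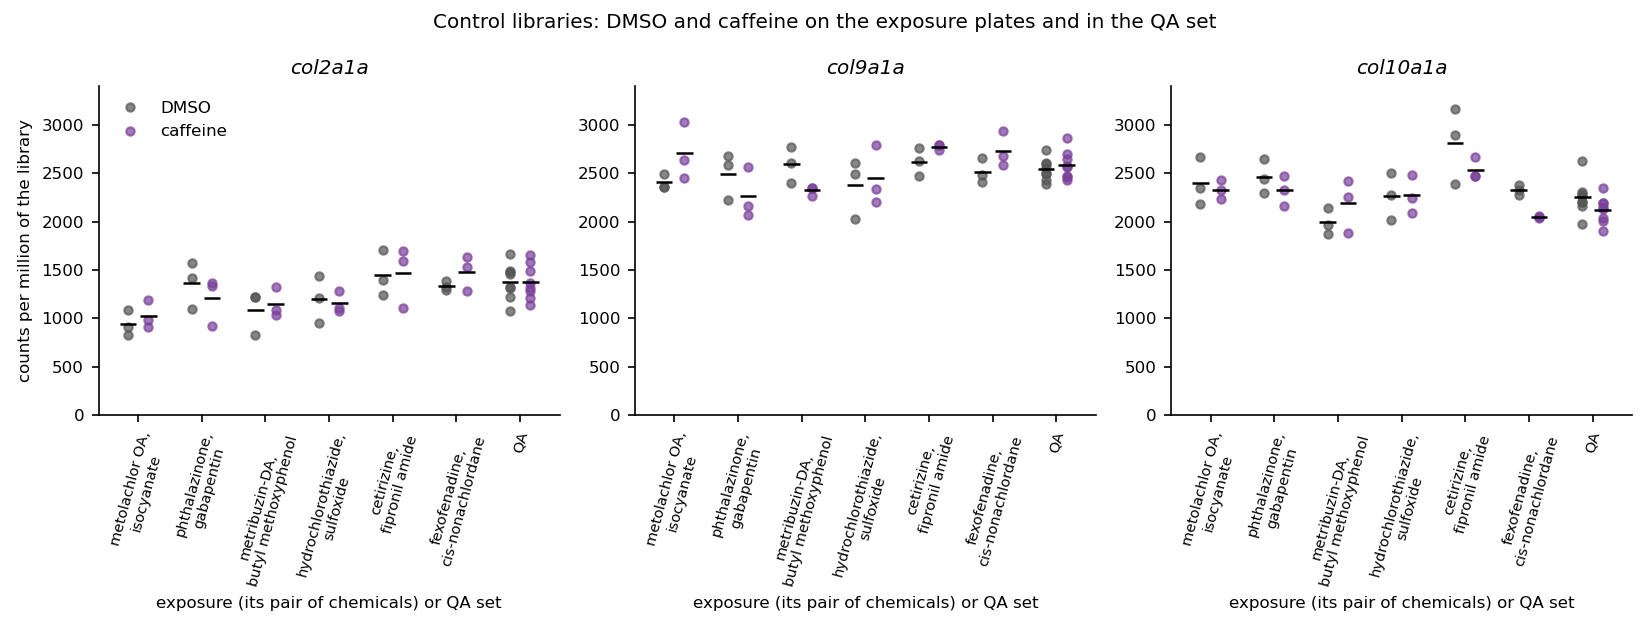
CPM of the 3 collagen genes in each DMSO (grey) and caffeine (purple) library of the 6 exposures and of the QA set, with black bars for the means. DMSO and caffeine overlap for each gene over the 18 plate libraries of each and in the QA set, and the DMSO means of col2a1a run from 942 to 1451 CPM between exposures.

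Other genes of cartilage were measured beside the members. In the isocyanate series 4 of the 6 other cartilage collagens fell by slope and 0 rose, with a median slope of -0.068 against -0.0002 over all 1507 probes tested, of which 161 fell (10.7%) and 121 rose. These were the type XI chain gene col11a1a (-0.078 ± 0.021), the type IX chain gene col9a2 (-0.074 ± 0.015), col2a1b (-0.062 ± 0.015) and col10a1b (-0.23 ± 0.075), the last named outside the naming rule because its mean count was below 20. The type IX chain gene col9a3 had a slope of -0.010 ± 0.013 (adjusted p = 0.643). Of the 3 genes of the cartilage matrix list on the panel 2 were tested and both fell, cnmd, which encodes chondromodulin (-0.13 ± 0.026), and, also below a mean count of 20, hapln1a, the link protein of hyaluronan and proteoglycan (-0.21 ± 0.064). Without D1, 2 of the 6 collagens (col11a1a and col2a1b) and cnmd were called, where 23 probes rose and 25 fell of 1506. Against DMSO, 0 of the 6 collagens and 0 of the 2 matrix genes were called at D1, and 0 of each at D2. Over all probes a fall was called there for 1.99% at D1 and 0.265% at D2.

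None of the regulators and signals tested was called in the isocyanate series, where 161 of 1507 probes fell (10.7%) and 121 rose. The lists had 4 transcription factors and 7 signals and receptors on the panel, of which 2 and 6 were tested. Of the chondrocyte transcription factors, sox9a, the regulator of cartilage collagen genes in vertebrates, had a slope of -0.050 ± 0.025 (adjusted p = 0.162) and dlx5a 0.038 ± 0.032 (adjusted p = 0.440). Of 6 growth plate signals and receptors 0 were called, with a median slope of 0.041 and 1 of the 6 slopes negative. Among them was ihha, the ligand of the hedgehog pathway in growing cartilage, at 0.029 ± 0.030. Of the 2 bone genes, phospho1, a phosphatase of skeletal mineralisation, had a slope of -0.23 ± 0.040 and was called (adjusted p = 2.74e-05), and spp1, which encodes osteopontin, had a slope of -0.0052 ± 0.025 (adjusted p = 0.908). The phospho1 gene is named outside the rule for its low count.

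Other collagens, listed by gene name and not by tissue, fell in the isocyanate series too. Of 15 tested, 8 fell and 1 rose, with a median slope of -0.054, where 161 of all 1507 probes fell (10.7%), 121 rose and the median was -0.0002. The steepest falls were those of the type I chain genes col1a1a (-0.10 ± 0.018) and col1a2 (-0.093 ± 0.014), col8a2 (-0.082 ± 0.012) and the basement membrane chain gene col4a1 (-0.077 ± 0.017), while col4a6 rose (0.072 ± 0.025). Without D1 3 of these 15 were called, col1a2, col4a1 and col8a2. Against DMSO, 2 of the 15 fell at D1 and 0 at D2, where 1.99% and 0.265% of all probes fell. The gelatinase genes mmp2 (0.078 ± 0.013) and mmp9 (0.13 ± 0.027) rose. Of 6 genes of collagen synthesis 1 fell, fkbp14 (-0.084 ± 0.022), which encodes a peptidyl-prolyl isomerase of the endoplasmic reticulum. None of 3 genes of the notochord list was called, nor the muscle gene desma (-0.034 ± 0.026, adjusted p = 0.403), and the part of other tissues in the falls was not tested.

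In 2-tert-Butyl-4-methoxyphenol none of the 6 other cartilage collagens was called, with a median slope of -0.031 against -0.0049 over all 1589 probes tested, of which 204 fell (12.8%) and 229 rose. Of the 2 bone genes, phospho1 fell here as well in the slope test (-0.17 ± 0.064, adjusted p = 0.0436). It is again named outside the rule, with a mean count of 15.1. The other bone gene, spp1, was not called (0.017 ± 0.043, adjusted p = 0.812). Against 12.8% of all probes falling, 4 of 16 other collagens fell and 0 rose, with a median slope of -0.047. They were col6a2 (-0.081 ± 0.027), col1a2 (-0.077 ± 0.017), col1a1b (-0.075 ± 0.016) and col5a2a (-0.057 ± 0.015). Of the collagen synthesis genes fkbp14 fell (-0.25 ± 0.045) and the lysyl hydroxylase gene plod1a rose (0.11 ± 0.029). The gelatinase gene mmp9 rose by 0.48 ± 0.058 per step and igf1ra, a receptor gene for insulin-like growth factor, by 0.089 ± 0.027. Of the 3 genes of the notochord list shha rose (0.14 ± 0.044) and shhb fell (-0.29 ± 0.077). Both are named outside the rule, with mean counts of 14.6 and 12.25. Without the single D1 library, plod1a was the one gene of these lists still called, where 54 probes rose and 17 fell of 1515.

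Correlations were taken across the 322 plate libraries, on log2 CPM with TMM scaling, centred within exposures. The probe most like col10a1a among 1111 was col9a2 (Pearson r = 0.57), followed by zgc:136930, col1a1b, csrp1a and polr2h (0.55 to 0.51). The nearest to col9a1a was fgfbp2b (0.57), then col9a3 (0.49), col11a1a, col2a1a and snrpg. Nearest to col2a1a were acsf2 (0.59), rpl9, col11a1a, col4a1 and apoc1. These are descriptions over libraries that share plates and 12 dose series. The nearest probes were not recomputed without the 2 responding chemicals. Between the members, col2a1a and col9a1a had an r of 0.45 over all libraries and of 0.39 over the 276 that leave out these chemicals. In the 18 DMSO libraries it was 0.44. The r of col10a1a with col9a1a was 0.28 over all and -0.049 over the 276, and in the 18 DMSO libraries it was -0.58. That of col10a1a with col2a1a was 0.091 over all, -0.16 over the 276 and -0.36 in the DMSO libraries. The correlation with the log2 library total was weak for each member (-0.087 for col2a1a, 0.022 for col9a1a and 0.17 for col10a1a).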

How the data were processed

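The authors deposited a table of whole-number counts for each probe, not normalized, per the file headers. The submitters' processing notes list bcl2fastq, a converter of base-call files to reads. The aligner, genome build and probe sequences were not given in the sources used here. RefSeq's gene table of fPimPro1.hap1.1 was used for names, and the 3 members were found in it. The titles of 26 libraries name DMSO where the treatment label says caffeine, and the label was followed. These are all of the caffeine libraries, 18 on plates and 8 in the QA set. The sulfoxide of the sample labels is named as a sulfone by the series text. The number of larvae per pool and the concentration per code are not used. Nothing says whether QA libraries were separate exposures, so their p-values may measure technical spread. The most alike replicates still differed beyond sampling noise (chi-square per degree of freedom of at least 1.42). No molecular identifiers are mentioned, so PCR reads are not independent molecules and counting error is a lower limit of a library's error.

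The main test was edgeR's quasi-likelihood F-test (version 4.0.16 in R 4.3.3) with TMM scaling, filterByExpr set to a minimum count of 10, 1 mean per group and all libraries of an exposure in a fit. P-values were adjusted by Benjamini-Hochberg over all probes of a chemical, for codes over all probes and 8 codes together, with a threshold of 0.05. The slope is a linear contrast over the 8 code means and leaves out DMSO. Ratio slopes used log2 of counts plus 0.5 and 100000 two-sided permutations within plates. The slope test was tested on simulated counts for the isocyanate exposure. Of 100 probes given a slope of 0.1 per step, 84% were called with the right sign among 1494 probes, with 6 false calls. The simulated libraries had no plate effect and the changed probes had a mean of at least 20 counts. The share called in the real data is therefore not known from it. The letters A, B and C in the labels were taken to mark a shared exposure plate, which would pair the libraries. The labels themselves do not say so, nor whether their wells are those of exposure or library plates. Deviations from the group mean had a median correlation between libraries of a plate of 0.0145 to 0.217 over 18 plates. On the plate at 0.0145, 23.5% of library pairs exceeded 0.1, so shared deviation was weak there. In the isocyanate exposure the median was 0.217 in A, 0.0705 in B and 0.143 in C. There 90.8%, 32.7% and 65.4% of pairs exceeded 0.1, so the main test, which has no block, leaves out a shared deviation. Pairs from different plates were not compared.

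The members and gene lists were chosen with earlier results of these data known. Genes of the lists are named where their slope passed with a mean of at least 20 counts, up to 6 per list and chemical, and the other list genes named were picked with their values known. Alternatives were DESeq2 1.42.0, other scalings, no filter, fewer libraries, the plate block, each plate letter left out, and D1 or D1 and D2 left out. The list of fin fold and skin genes had no gene on the panel.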

Additional observations from a re-analysis of the deposited data

Results flagged for a closer look

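There were 6 differences of slope that stood apart in the tests of the difference itself, with the slope in log2 units per step towards D1. The slope in 3,4-Dichlorophenyl isocyanate minus the mean slope in the other 11 chemicals was -0.1651 for col10a1a, -0.0885 for col9a1a and -0.1163 for col2a1a. In that test 6.98% of all 1661 probes were called lower. For col10a1a in 2-tert-Butyl-4-methoxyphenol the difference was -0.1159, where 10.5% of probes were called lower. The isocyanate slope minus that of 2-tert-Butyl-4-methoxyphenol was -0.1344 for col2a1a and -0.0606 for col9a1a. This contrast was added after the values were seen, and 8.79% of probes were called lower in it. The falls stood in 3 of 3 plates for each member in the isocyanate, and in 3 of 3 for col10a1a in 2-tert-Butyl-4-methoxyphenol, where 1 plate alone held D1. Falls in 3 of 3 plates also occurred without a call, for col2a1a in Gabapentin (-0.032 in A, -0.047 in B and -0.019 in C) and col10a1a in Metolachlor OA. In Cetirizine col2a1a rose in 3 of 3, so a shared sign alone does not set a series apart.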

How the results depend on the processing

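Over the alternatives, 258 values were classed as unchanged. These were estimates that kept their direction and side of the threshold, and counts of calls that changed by at most 1.5 times. Of the other values, 13 lost a call, 8 gained one, 3 counts moved by over 1.5 times and 2 values reversed. The cause was not tested. Without D1 and D2, 0 of the 36 member slopes passed against 4, with -0.0732 for col2a1a, -0.0587 for col9a1a and -0.0782 for col10a1a in the isocyanate and -0.0649 for col10a1a in 2-tert-Butyl-4-methoxyphenol; there the isocyanate gave 6 called probes of 1507, and 153 at an unadjusted p below 0.05. Without D1 the col2a1a slope was -0.0826, and 2 of the 4 differences from the other chemicals passed. The plate as a replicate block raised calls at single codes from 3 to 6, and it changed no other call of a member. With it the falls called over all probes of the isocyanate went from 1.99% to 3.98% at D1 and from 0.265% to 0.73% at D2. The fall of col10a1a at D2 was lost with library totals alone (-0.5687, adjusted p = 0.0729) and with the chemical's own libraries and DMSO (-0.6497, adjusted p = 0.0834). Leaving out a plate letter also changed the calls over all probes, as given above for the isocyanate without replicate B and 2-tert-Butyl-4-methoxyphenol without replicate A. The members then had 3 to 4 called slopes and 2 to 4 called codes. The log2 fold change of col10a1a at D2 of the isocyanate ran from -0.9575 to -0.451, and its slope in 2-tert-Butyl-4-methoxyphenol from -0.1409 to -0.0383. Its caffeine change ran from -0.0431 to 0.003, and the ratio slope of col2a1a over col9a1a turned from -0.023 to 0.0008 without D1. The fall of col2a1a at D1 also passed with DESeq2 (-0.71, adjusted p = 0.0301), without the filter, with own libraries and without replicate A. The depth was at least 180 counts per member and library, and no comparison of depth with the other limits was made.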
